A study of Mus musculus with 16 samples.

Results

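The comparison of WT CD4+ T cells cultured with IL-6 and TGFb against WT cells cultured with IL-6 alone rests on 4 of the 16 Affymetrix mouse arrays in the study, 2 per group, taken by their genotype and culture labels and not by any measured value. It asks what TGFb adds in T cells that already receive IL-6. All cells were naive sorted CD4+ CD44- T cells, activated for 3 days through CD3 and CD28 with antibodies. IL-6 was used at 10 ug/ml and TGFb at 2.5 ug/ml, in the unit that the labels give. The WT cells carry a floxed Stat3 gene (genotype STAT3floxed) and no Cre. The STAT3-deficient cells, used below for contrast, carry the same alleles with CD4 Cre (CD4 Cre; STAT3floxed), which removes the floxed part in cells of the T lineage. A further pair of WT groups, with TGFb alone or medium alone, shows what TGFb does without IL-6. The labels do not say whether replicates 1 and 2 came from separate animals, and p-values therefore cover only how much these samples vary. Every value is the log2 of a deposited array intensity, and 13007 of the 18193 named genes were bright enough to be tested.

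TGFb binds a pair of serine/threonine kinase receptors that phosphorylate SMAD2 and SMAD3, which join SMAD4 and act in the nucleus, while SMAD7 and other induced proteins shut the pathway down again. IL-6 signals through gp130 and STAT3. In naive CD4+ T cells TGFb alone favours Foxp3 and the regulatory programme, and TGFb together with IL-6 favours IL-17 and the Th17 programme, while the Th1 and Th2 programmes are held back.

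The cells read as T cells on the 4 arrays. All 10 measured T cell markers were above log2 8, with summed levels of 15.06 and 15.31 under IL-6 and of 15.19 and 15.21 with TGFb added. Cd8a and Cd8b1 were under log2 8 on all 16 arrays. Replicates 1 and 2 differed in sex-linked genes: Xist read 11.91 to 13.21 on the 8 arrays numbered 1 and 6.64 to 7.6 on the 8 numbered 2, and the Y-linked Eif2s3y the reverse, 3.81 to 4.52 and 9.84 to 10.98. The Actb 5' minus 3' difference, which falls as RNA degrades, was also lower in replicate 2, at -1.71 to -0.88 against -0.5 to -0.11. Both groups hold 1 array of each number, so these differences are balanced between them. The spread within the groups was unequal, since 1544 genes (11.9%) lay 2-fold or more apart between the IL-6 replicates and 227 (1.75%) between the replicates with TGFb added. The floxed gene Stat3 read 10.22 to 12.18 on the WT arrays and 8.4 to 10.46 on the STAT3-deficient ones, and whether its probe set lies in the deleted part is not given. The library labelled STAT3-deficient TGFb replicate 1 read Il17a at 9.55 where its partner read 6.07.

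Adding TGFb to IL-6 changed 124 of the 13007 genes (0.953%) at an adjusted p under 0.05 in limma, with 97 higher (0.746%) and 27 lower (0.208%). At an unadjusted p under 0.05 there were 1175 genes (9.03%). The median change of all genes tested was -0.03 on the log2 scale. In RNA of whole cultures, fewer cells that express a gene and less RNA of it per cell cannot be told apart. Of the 97 higher genes 96 differed by 2-fold or more, 52 by 4-fold or more and 24 by 8-fold or more. All 27 lower genes differed by 2-fold or more, 12 by 4-fold or more and 5 by 8-fold or more. In all 124 the 2 groups did not overlap and both replicate numbers gave the same sign. A call between groups of 2 arrays favours both, and their share over all genes is not given, so this is no separate support. With the replicate number as a block the count was 243 (1.87%), with 154 higher (1.18%) and 89 lower (0.684%), and it included all 124. The count moved with single arrays, to 43 without IL-6 replicate 1, to 400 without IL-6 replicate 2, to 30 without IL-6 with TGFb replicate 1 and to 28 without IL-6 with TGFb replicate 2. The 18 genes called in all 4 of these fits were Acvr2a, Adam19, B3gnt8, Fnbp1l, Gpr15, Kctd14, Klre1, Ldlrad4, Lgr4, Ncmap, Nrarp, Pdpn, Prg4, Sema6d and Sestd1, which rose, and Filip1l, Hhex and St3gal1, which fell. A difference of 2-fold or more in both replicate numbers, with no test, was seen upward in 203 genes (1.56%), downward in 191 (1.47%) and in opposite directions in 24 (0.185%).

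**Figure D1:**
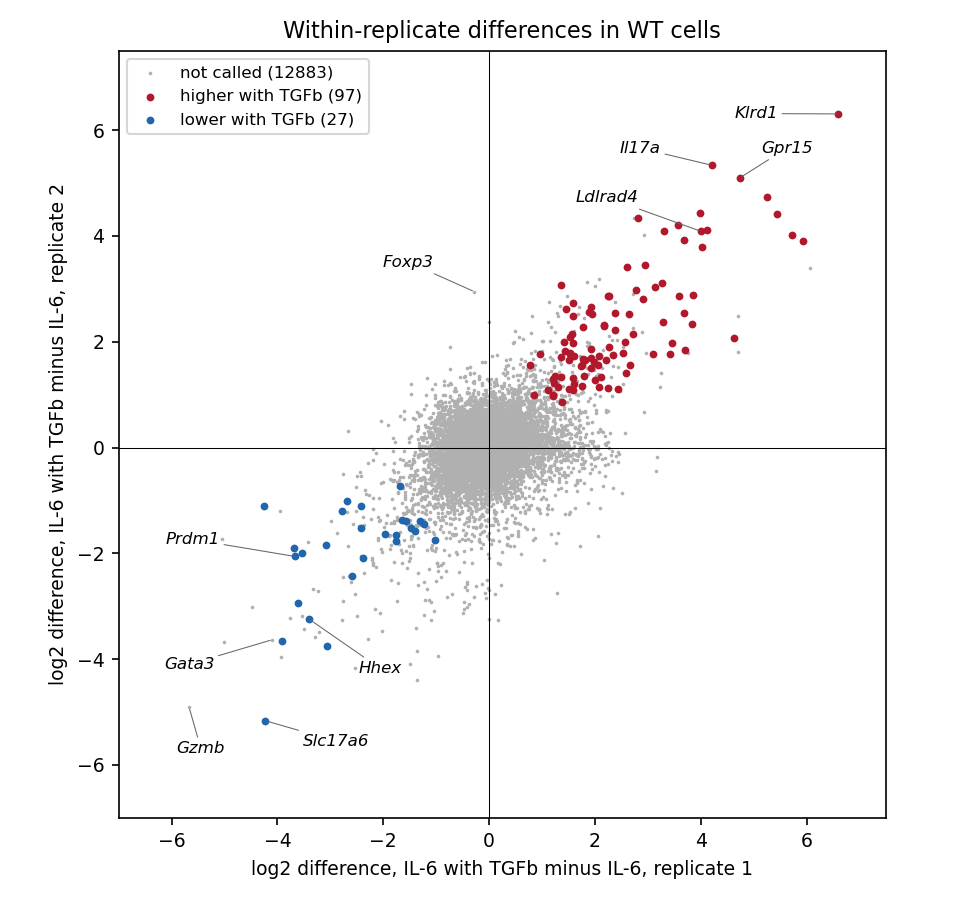
Log2 difference of each tested gene between IL-6 with TGFb and IL-6 alone in WT cells, in replicate 1 (x axis) and replicate 2 (y axis), with the 97 genes called higher in red, the 27 called lower in blue and all others in grey. The called genes lie in the upper right and lower left corners, Klrd1 at 6.6 and 6.31 is at the top, and Foxp3, not called, lies at -0.28 and 2.95.

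The promoters of 3 genes whose changes recur below are shown, because they let a reader look at the sequence next to the start of a gene that TGFb raised with IL-6 present (Gpr15), of one that it lowered (Hhex) and of the signature cytokine of the Th17 programme (Il17a). The windows of 300 bases, most of them before the start, are from RefSeq on GRCm38.p6 and read 5′ to 3′ along the gene: chr16:58718823-58719122 on the minus strand for Gpr15, chr19:37434591-37434890 on the plus strand for Hhex and chr1:20730655-20730954 on the plus strand for Il17a. Capitals mark the SMAD element CAGAC or its reverse complement GTCTG.

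Gpr15: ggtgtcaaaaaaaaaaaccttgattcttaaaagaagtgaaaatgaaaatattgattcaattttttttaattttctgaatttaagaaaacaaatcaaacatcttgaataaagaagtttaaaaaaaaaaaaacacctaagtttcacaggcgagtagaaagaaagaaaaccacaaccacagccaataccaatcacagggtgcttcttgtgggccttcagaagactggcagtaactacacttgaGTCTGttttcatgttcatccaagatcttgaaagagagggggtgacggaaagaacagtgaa

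Hhex: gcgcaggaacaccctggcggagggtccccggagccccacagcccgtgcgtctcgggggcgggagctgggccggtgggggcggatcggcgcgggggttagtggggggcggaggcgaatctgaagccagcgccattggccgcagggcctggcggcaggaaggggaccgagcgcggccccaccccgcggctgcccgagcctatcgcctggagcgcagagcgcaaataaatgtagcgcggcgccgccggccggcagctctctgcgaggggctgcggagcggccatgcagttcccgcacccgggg

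Il17a: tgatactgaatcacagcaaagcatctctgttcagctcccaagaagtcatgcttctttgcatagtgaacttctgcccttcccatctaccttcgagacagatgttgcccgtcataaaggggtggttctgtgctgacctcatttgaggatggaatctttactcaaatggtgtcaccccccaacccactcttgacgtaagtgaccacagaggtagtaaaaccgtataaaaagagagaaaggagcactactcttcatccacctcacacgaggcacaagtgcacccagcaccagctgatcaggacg

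The Gpr15 window holds 1 SMAD element, and those of Hhex and Il17a hold none. None of the 3 holds the palindrome GTCTAGAC or the STAT element TTCNNNGAA, each searched on both strands. Over all 32851 promoter windows of this length CAGAC was found in 49.6%, GTCTAGAC in 0.213% and TTCNNNGAA in 8.3%. In the 105 windows of the 79 higher genes that had one, the shares were 51.4%, 0 and 6.67%, and in the 40 windows of 25 lower genes 47.5%, 0 and 10.0%. The short SMAD element was thus about as common in the changed genes as in all windows, and a match in such a window shows no binding.

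The receptors and the feedback arm of the TGFb pathway were partly higher with TGFb, and the SMADs that carry the signal did not pass the test. Of 15 genes listed as TGFb family receptors 14 were tested and 2 were called, both higher, where 0.746% of all genes were. Acvr2a, a type II activin receptor, read 7.19 and 7.2 under IL-6 and 9.97 and 10.17 with TGFb added, a log2 change of 2.88 ± 0.3 (SE, adjusted p = 0.00132). Bmpr2, the type II BMP receptor, read 7.83 and 7.99 against 9.75 and 9.85, a change of 1.89 ± 0.25 (adjusted p = 0.00477). The groups lay far apart in both genes, and the replicates close together. The TGFb receptors themselves were not called. Tgfbr1, the type I receptor, read 9.75 and 9.06 against 11.35 and 10.41, a change of 1.48 ± 0.47 (adjusted p = 0.271). Tgfbr2, the type II receptor, read 10.72 and 10.52 against 11.16 and 11.34, a change of 0.63 ± 0.25 (adjusted p = 0.464).

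Of the 13 SMAD proteins and partners, all tested, none was called. In limma 2 of them had an unadjusted p under 0.05, where 9.03% of all genes had one. The list's median change was 0.05. Its changes ran from -0.37 for Zeb2, a repressor that binds SMADs, to 0.73 for Smad5, a SMAD of the BMP branch. Smad3, a carrier of the TGFb signal, read 9.95 and 10.66 against 9.55 and 10.43, a change of -0.32 ± 0.56, and the groups overlapped. Of 15 ligand and latency genes 10 were tested and none was called, with 1 at an unadjusted p under 0.05. That gene was Furin, the protease that cleaves the TGFb precursor, at 8.09 and 8.85 against 10.06 and 10.42, a change of 1.76 (adjusted p = 0.14, and 0.00257 with the replicate block). Tgfb1, the ligand's own gene, read 9.03 and 10.57 against 9.11 and 10.53, so that the replicates differed more than the groups.

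Of the 14 feedback inhibitors, all tested, 2 rose (against 0.746% of all genes) and none fell, with a list median of 0.63, and 5 rose with the replicate block. Smad7, the inhibitory SMAD, read 8.21 and 8.68 under IL-6 and 9.97 and 9.84 with TGFb, a 2.75-fold rise (log2 change 1.46 ± 0.24, adjusted p = 0.0176). Its call was lost with only the 8 WT arrays (adjusted p = 0.0775 in limma). Ldlrad4, a membrane protein that keeps SMAD2 and SMAD3 from the receptor, read 5.46 and 5.25 against 9.46 and 9.34, a change of 4.04 ± 0.34 (adjusted p = 0.000187). Ldlrad4 went from under log2 6, near the background, to a clear signal on both arrays. Pmepa1, a relative of Ldlrad4 with the same kind of role, read 8.42 and 8.81 against 10.84 and 10.85 (change 2.23, adjusted p = 0.0813, and 0.00951 with the block). Skil, the SMAD corepressor SnoN, read 9.94 and 10.39 against 12 and 11.79 (change 1.73, adjusted p = 0.089, and 0.00827 with the block). Its relative Ski read 9.54 and 9.57 against 10.28 and 10.63 (change 0.9, adjusted p = 0.265, and 0.0474 with the block). All 3 missed the threshold without the block.

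Of 30 genes listed as induced by TGFb in T cells, 21 were tested, 4 were too dim and 5 were not analysed here. Of the 21, 6 rose, where 0.746% of all genes did, and none fell (9 and none with the block), and the median change was 1.1. Gpr15, a homing receptor for the colon, read 5.09 and 4.7 under IL-6 and 9.84 and 9.8 with TGFb added, a 30.4-fold rise (log2 change 4.93 ± 0.29, adjusted p = 1.6e-05). The IL-6 arrays were at the background, so the size of this fold depends on it. Nt5e, which encodes CD73, the surface enzyme that makes adenosine from AMP, read 5.21 and 7.93 against 10.93 and 11.96 (change 4.87 ± 0.93, adjusted p = 0.0337). Its IL-6 replicates lay far apart. Its 2 further probe sets gave changes of 1.29 and 0.14. The call was lost with probe sets averaged (change 2.1, adjusted p = 0.0716), with only the 8 WT arrays (0.105) and without 2 doubtful STAT3-deficient arrays, TGFb replicate 1 and IL-6 with TGFb replicate 1 (0.051). Adam19, a membrane metalloprotease, read 7.77 and 7.85 against 11.04 and 10.95 (change 3.19 ± 0.24, adjusted p = 7.1e-05). Lrig1, a negative regulator of growth factor receptors, named after its values were seen, rose by 2.43 ± 0.44 (adjusted p = 0.0297). Itgae, the CD103 integrin chain, did not pass, at 6.66 and 6.3 against 8.87 and 6.98 (change 1.44, adjusted p = 0.725). The lowest of the 21 was Cdkn1a, a cell cycle inhibitor, at -0.98 (adjusted p = 0.835).

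**Figure D2:**
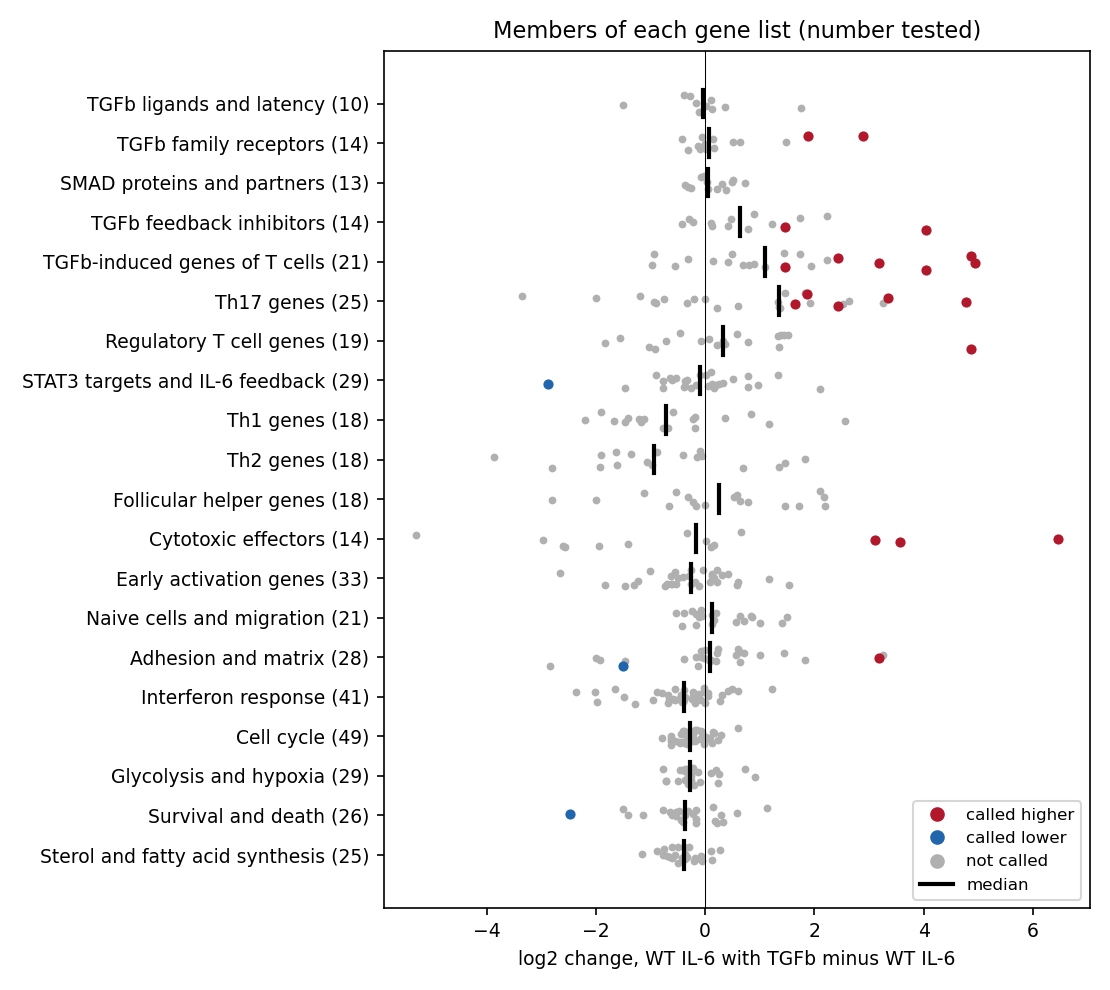
Log2 change with TGFb (x axis) of each tested member of 20 gene lists (rows, with the number tested), coloured by its call, and the list's median as a black bar. The TGFb-induced genes have a median of 1.1 with 6 called higher, the Th17 genes 1.36 with 5 called higher, and the Th1 and Th2 genes -0.72 and -0.94 with none called.

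Th17 genes were higher in part. Of 30 listed, 25 were tested, 1 was too dim and 4 were not analysed here. Of the 25, 5 rose, where 0.746% of all genes did, and none fell, with a median of 1.36. Il17a, the signature cytokine, read 5.95 and 6.25 under IL-6 and 10.16 and 11.58 with TGFb added, a 27.3-fold rise (log2 change 4.77 ± 0.81, adjusted p = 0.02). The IL-6 arrays were near the background, so the size of this fold depends on it. It was as low in every other WT group, at 6.09 to 6.39 with TGFb alone or in medium. Ahr, the aryl hydrocarbon receptor, read 7.47 and 9.77 against 12.11 and 11.85 (change 3.35 ± 0.63, adjusted p = 0.0325). Rora, a nuclear receptor of the Th17 programme, read 8.48 and 9.49 against 11.58 and 11.25 (change 2.43 ± 0.37, adjusted p = 0.0109). In both genes IL-6 replicate 1 was well below replicate 2, while the arrays with TGFb lay close together. The membrane proteins Tmem176b and Tmem176a, which Th17 cells express, rose by 1.86 ± 0.31 (adjusted p = 0.0175) and 1.65 ± 0.27 (adjusted p = 0.0146), the latter named after its values were seen. With only the 8 WT arrays in limma the calls of Ahr (adjusted p = 0.148) and Tmem176b (0.107) were lost. With only the 4 arrays compared those of Il17a (0.0665) and Rora (0.135) were lost too.

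Other Th17 genes differed without passing the test. Ccr6, the chemokine receptor of Th17 cells, read 5.98 and 6.58 against 7.98 and 9.63 (change 2.52, adjusted p = 0.589). Il1r1, the IL-1 receptor, read 6.82 and 6.77 against 8.67 and 8.76 (change 1.92, adjusted p = 0.088, and 0.0154 with the block). Il21, an IL-6-induced cytokine, was high in both groups, at 12.23 and 11.72 against 12.39 and 11.54, a change of -0.01 ± 0.53. Maf, a transcription factor of IL-10 and IL-21 production, read 10.34 and 11.82 against 12.58 and 12.51, a change of 1.46 ± 0.47 (adjusted p = 0.282). Il24, a cytokine of the IL-10 family, had the lowest change of the list, -3.35 ± 2.06 (adjusted p = 0.765), at 11.92 and 11.27 against 9.39 and 7.1.

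Of the 19 tested of 22 regulatory T cell genes, Nt5e alone was called higher, where 0.746% of all genes were. None was called lower, and the median was 0.33. Capg, an actin-capping protein, was called higher with the block (change 1.51, adjusted p = 0.0839, and 0.0474 with the block). Foxp3, the regulator of that lineage, read 5.09 and 4.95 under IL-6 and 4.81 and 7.9 with TGFb. It was thus above the background on 1 of the 4 arrays, that of replicate 2, and its mean change of 1.33 ± 1.4 (adjusted p = 0.946) rests on it. Ikzf2, which encodes Helios, read 6.99 on both IL-6 arrays and 7.4 and 7.23 with TGFb, a change of 0.33 ± 0.62, and its 2 further probe sets gave -0.7 and -0.09. Ctla4, an inhibitory receptor, changed by 0.59 (adjusted p = 0.79), and Il2ra, the IL-2 receptor alpha chain, by 0.22 with overlapping groups.

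Few genes of the IL-6 and STAT3 axis were called. Of 29 tested of 30 listed, 1 fell (2 with the block, which added Fos) and none rose, where 0.208% and 0.746% of all genes did. The median was -0.09, and the changes ran from -2.87 to 2.1. In limma 4 of the 29 were higher and 1 lower at an unadjusted p under 0.05, where 9.03% of all genes were in either direction. The gene that fell was Prdm1, which encodes the repressor Blimp-1, at 9.53 and 7.48 under IL-6 and 5.86 and 5.43 with TGFb, a 7.29-fold fall (log2 change -2.87 ± 0.55, adjusted p = 0.0337). With TGFb it stood where it stood in medium, at 5.46 and 5.64. The call of Prdm1 was lost in limma with only the 8 WT arrays (adjusted p = 0.131) and with quantiles (0.0559). Socs3, the feedback inhibitor of gp130, read 12.17 and 12.54 against 12.61 and 12.5, a change of 0.2 ± 1.05. Stat3 changed by 0.25 ± 0.58, and Il6st, which encodes gp130, by 1.34 ± 0.42 (adjusted p = 0.253). Bcl6, the repressor of follicular helper cells that opposes Blimp-1, read 6.17 and 6.27 against 7.85 and 8.8, a change of 2.1 ± 0.6 (adjusted p = 0.19).

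No gene of the Th1 or the Th2 list was called. Of 18 Th1 genes tested 3 had an unadjusted p under 0.05 in limma, 1 higher and 2 lower, and of 18 Th2 genes 4, 1 higher and 3 lower, where 9.03% of all genes were in either direction. The medians were -0.72 and -0.94, against -0.03 for all genes tested. Gata3, the regulator of Th2 cells, read 11.26 and 10.57 under IL-6 and 7.16 and 6.93 with TGFb, a change of -3.87 ± 1.3 (adjusted p = 0.311, and 0.0983 with the block). The gap was wide in both replicate numbers. Gata3 varied as much elsewhere, from 6.97 to 11.1 between the STAT3-deficient IL-6 replicates, and that spread enters its SE. Ecm1, a secreted matrix protein of Th2 cells, read 13.83 and 12.85 against 11.73 and 11.1 (change -1.92, adjusted p = 0.0567, and 0.0457 with the block). Tbx21, the regulator of Th1 cells, read 10.14 and 9.27 against 7.95 and 7.08, a change of -2.19 ± 1.49 (adjusted p = 0.808). Hlx, a homeobox factor of Th1 cells, was called lower with the block (change -1.18, adjusted p = 0.118, and 0.0474 with the block). Ifng, the Th1 cytokine, read 7.89 and 5.36 against 5.7 and 5.13 and overlapped.

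The cytotoxic list held large differences both ways. Of 14 genes tested of 15, 3 rose, where 0.746% of all genes did, and none fell, and the median was -0.16. Klrd1, which encodes CD94, a lectin-like receptor chain best known from natural killer cells, had the largest log2 change of all 124 called genes. It read 5.46 and 6.54 under IL-6 and 12.06 and 12.85 with TGFb, an 87.7-fold rise (log2 change 6.45 ± 0.92, adjusted p = 0.00721). Klrc1, which encodes its partner NKG2A, read 4.46 and 4.52 against 7.27 and 8.85 (change 3.57 ± 0.65, adjusted p = 0.0297). The call of Klrc1 was lost with only the 8 WT arrays (adjusted p = 0.105 in limma). Ctsw, a protease of cytotoxic lymphocytes, read 9.35 and 10.32 against 13.02 and 12.87 (change 3.11 ± 0.48, adjusted p = 0.0112). None of these overlapped between the groups, which a call between groups of 2 arrays favours. The summed level of 5 NK cell markers, 2 of them Klrd1 and Klrc1, was 6.99 and 7.5 under IL-6 and 12.14 and 12.95 with TGFb. The other 3 stayed under log2 8 on all 16 arrays, and Ncr1, the defining receptor of NK cells, read 5.25 and 5.46 against 5.39 and 5.49.

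Of the other genes of this list none passed. Gzmb, granzyme B, read 13.76 and 13.52 under IL-6 and 8.09 and 8.6 with TGFb, a change of -5.29 ± 1.84 (adjusted p = 0.34, and 0.113 with the block). Cst7, an inhibitor of cathepsins, read 12.03 and 12.21 against 9.43 and 9.66 (change -2.57, adjusted p = 0.09, and 0.0703 with the block). Nkg7, a granule membrane protein, read 8.59 and 10.06 against 6.52 and 6.93 (change -2.6, adjusted p = 0.367). Of the 14 genes, 6 were 2-fold or more lower in both replicate numbers, where 1.47% of all genes were. Gzmb, Cst7 and Nkg7 were named after their values were seen.

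**Figure D3:**
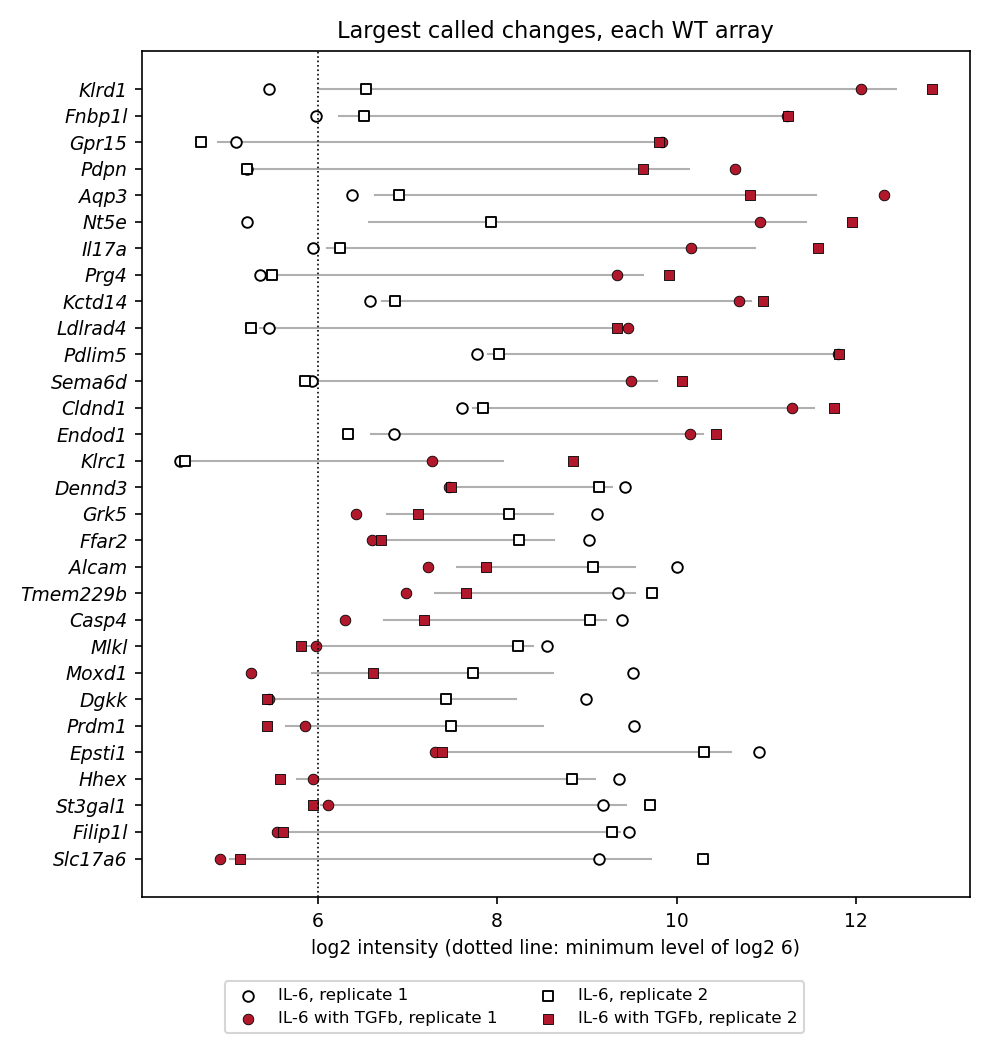
Log2 intensity on each of the 4 WT arrays (x axis) of 15 higher and 15 lower called genes. They have the largest changes among called genes with no overlap between the groups and a higher group mean of at least log2 8. Open symbols show IL-6 and red ones IL-6 with TGFb, circles replicate 1 and squares replicate 2. A grey line joins the group means, and a dotted line marks log2 6. The IL-6 replicates lie further apart than the replicates with TGFb in genes such as Prdm1, at 9.53 and 7.48.

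Among the remaining genes with the largest rises were several membrane and matrix proteins. Fnbp1l, an adaptor between membrane curvature and actin, read 5.98 and 6.51 under IL-6 and 11.23 and 11.24 with TGFb (change 4.99 ± 0.36, adjusted p = 5.8e-05). Pdpn, podoplanin, a mucin-like glycoprotein found on Th17 cells, read 5.21 on both IL-6 arrays and 10.65 and 9.63 with TGFb (change 4.93 ± 0.5, adjusted p = 0.00105). Prg4, a secreted lubricating proteoglycan, read 5.36 and 5.49 against 9.34 and 9.92 (change 4.2 ± 0.24, adjusted p = 1.6e-05). All 3 rose from near the background. Aqp3, a water and glycerol channel, changed by 4.92 (3.21 with its probe sets averaged) and Pdlim5, a scaffold of the actin cytoskeleton, by 3.91 (2.41). Sema6d, a semaphorin, changed by 3.88 on its brightest probe set, while its 3 further probe sets gave 0.3, 0.2 and 0.03 and their average with it 1.1 (adjusted p = 0.0255). Kctd14, Cldnd1 and Endod1 rose by 4.11, 3.8 and 3.7.

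The largest fall among the called genes was that of Slc17a6, a vesicular glutamate transporter, at 9.14 and 10.29 under IL-6 and 4.91 and 5.13 with TGFb (log2 change -4.7 ± 0.62, adjusted p = 0.00477). Filip1l read 9.47 and 9.28 against 5.55 and 5.61 (change -3.79 ± 0.47, adjusted p = 0.00385). St3gal1, a sialyltransferase that caps core O-glycans, read 9.18 and 9.7 against 6.11 and 5.95 (change -3.41 ± 0.38, adjusted p = 0.00202). Hhex, a homeobox repressor, read 9.36 and 8.83 against 5.95 and 5.58 (change -3.32 ± 0.27, adjusted p = 0.000127). With TGFb these 4 genes were at or near the background on both arrays. Casp4, an inflammatory caspase, fell by 2.47, and Mlkl, the effector of necroptosis, by 2.5 on the log2 scale. Epsti1, an interferon-inducible gene, fell by 3.27, although none of the 41 tested interferon genes was called. An unadjusted p under 0.05 in limma, which 9.03% of all genes had, was found for 4 of the 41, all lower. Of these Ifih1, a sensor of double-stranded RNA, was called lower with the replicate block (change -2.37, adjusted p = 0.102, and 0.0141 with the block). Alcam, a cell adhesion molecule, fell by 1.99, Ffar2, a receptor of short-chain fatty acids, by 1.98, Grk5, a kinase of G protein-coupled receptors, by 1.85 and Adam8, a metalloprotease, by 1.5. Moxd1, Dgkk, Tmem229b and Dennd3 fell by 2.69, 2.77, 2.23 and 1.81. The summed level of 8 dendritic cell markers was also lower with TGFb, at 11.05 and 11.0 against 11.54 and 12.13, and that of 7 stromal and epithelial markers, at 9.69 and 9.36 against 10.07 and 10.59. The members did not all move alike. H2-Ab1, with the highest reading of the dendritic markers, read 9.97 and 11.32 under IL-6 and 10.15 and 10.42 with TGFb. It was thus higher with TGFb in replicate 1 and lower in replicate 2. Epcam, with the highest reading of the other list, read 8.86 and 10.18 against 8.29 and 7.83. Neither list had a called member, 4 and 5 of them were under log2 8 on all 16 arrays, and their part in the falls was not tested.

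The growth and metabolism lists held no called gene. None of the 49 tested cell cycle genes was called (2 at an unadjusted p under 0.05 in limma), and their changes lay between -0.79 for Ttk and 0.6 for Birc5. None of 29 glycolysis and hypoxia genes was called (1 at an unadjusted p under 0.05), nor any of 25 sterol and fatty acid synthesis genes (0). Their medians were -0.28, -0.28 and -0.39. None of 33 early activation genes was called (8 at an unadjusted p under 0.05, 2 higher and 6 lower, where 9.03% of all genes were), and Fos and Dusp6 were called lower with the replicate block. Their changes ran from -2.65 for Atf3 to 1.54 for Dusp4, and 5 were 2-fold or more lower in both replicate numbers, where 1.47% of all genes were. None of 21 genes of naive cells and migration was called (2), with Foxo1 called higher with the block. None of 18 follicular helper genes was called, with Tox2 called higher and Cd200 lower with the block. In limma 8 of the 18 had an unadjusted p under 0.05, 5 higher and 3 lower, where 9.03% of all genes had one. Changes in this list ran from -2.8 for Il4 to 2.19 for Cxcr5. In both replicate numbers 4 of the 18 were 2-fold or more higher and 2 lower, where 1.56% and 1.47% of all genes were. Adam19 was called higher and Adam8 lower in the adhesion and matrix list (28 tested), with Ecm1 and Adamtsl4 called lower with the block. In limma 4 of the 28 were higher and 5 lower at an unadjusted p under 0.05. Casp4 alone was called, lower, in the survival and death list (26 tested, median -0.37). There 2 of the 26 were higher and 6 lower at an unadjusted p under 0.05, where 9.03% of all genes were in either direction. In both replicate numbers 3 of the 26 were 2-fold or more lower and 0 higher, where 1.47% and 1.56% of all genes were. Over all genes 0.746% were called higher and 0.208% lower.

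Most of the higher genes also read higher with TGFb in the other settings. 2 further comparisons were TGFb added to IL-6 in STAT3-deficient cells and TGFb against medium in WT cells. Their changes use no array of the 4 described here. Their tests do, because the spread of each gene was estimated once over all arrays. A gene with a small spread is thus favoured for a call in every comparison, and the shares of calls in common are no independent support. In STAT3-deficient cells 32 genes were called higher (0.246%) and 1 lower (0.00769%), or 105 (0.807%) and 5 (0.0384%) with the replicate block. There the 97 genes had a median change of 1.0, against 0.0 for all genes tested, with 85 of the same sign and 49 at 2-fold or more, where 2.89% of all genes were. Of the 97, 21 were called there too (21.6%, and 65.6% of the 32). Against medium in WT cells 26 genes were called higher (0.2%) and 3 lower (0.0231%), or 53 (0.407%) and 9 (0.0692%) with the block. The 97 genes had a median of 0.93, with 92 of the same sign, 44 at 2-fold or more (3.61% of all genes) and 18 called (18.6%, and 69.2% of the 26). The 27 lower genes had medians of -0.42 and -0.69 in the 2 comparisons, with 21 and 20 of the same sign, 6 and 9 at 2-fold or more (0.992% and 2.44% of all genes), and 1 and 2 called.

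Named genes showed a range from equal to unequal. Ldlrad4 changed by 4.04 with IL-6 in WT cells, by 3.85 in STAT3-deficient cells and by 3.93 without IL-6, and Smad7 by 1.46, 1.5 and 1.42, each called in all 3 comparisons. Adam19 changed by 3.19, 3.64 and 3.57, and Acvr2a by 2.88, 2.69 and 1.91, also called in all 3. The 3 tests of a gene share its spread, so these calls are not independent of each other. Il17a changed by 4.77, 0.33 and 0.06, Klrd1 by 6.45, 2.26 and 3.99 and Pdpn by 4.93, 0.58 and 1.47. The differences of Il17a and Klrd1 between the settings did not pass (adjusted p = 0.624 and 0.863 against STAT3-deficient cells, 0.613 and 0.846 against TGFb without IL-6). The spread of Il17a in these fits includes the STAT3-deficient TGFb replicates, at 9.55 and 6.07. With the doubtful STAT3-deficient arrays left out, the change of Il17a in WT cells stayed at 4.77. Its differences were then 4.33 against STAT3-deficient cells and 4.71 against TGFb without IL-6. STAT3-deficient TGFb replicate 1 was held doubtful for its Il17a reading, so a fit without it cannot serve as a test of Il17a. The difference of Pdpn against STAT3-deficient cells had an adjusted p of 0.133, and of 0.0353 with the replicate block. Ikzf2 and Maf went the other way round: they changed by 0.33 and 1.46 here, by 4.49 and 5.31 in STAT3-deficient cells and by 3.24 and 4.61 without IL-6. Maf was already at 10.34 and 11.82 under IL-6 in WT cells, and at 5.13 and 5.73 in STAT3-deficient ones. The differences of both against STAT3-deficient cells did not pass (adjusted p = 0.301 and 0.142).

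Only Gpr15 and Hhex passed the test of the difference itself, in both tests (0.0154% of the genes in each, with 563 and 780 genes at an unadjusted p under 0.05 in limma). Gpr15 rose by 4.93 here, against 1.02 in STAT3-deficient cells, where it read 5.52 and 5.29 under IL-6 and 6.73 and 6.13 with TGFb. The difference was 3.9 ± 0.42 (adjusted p = 0.0118). Against TGFb without IL-6, where it read 5.17 and 5.0 in medium and 6.69 and 5.86 with TGFb, the difference was 3.74 ± 0.42 (adjusted p = 0.021). The arrays with both cytokines in WT cells thus stood above all 14 others. Hhex was high only under IL-6 alone in WT cells, and read between 5.32 and 6.39 on all 14 other arrays. Its differences were -3.37 ± 0.38 (adjusted p = 0.0118) and -3.18 ± 0.38 (adjusted p = 0.021).

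Both genes passed both tests with the replicate block. With only the arrays compared the adjusted p of Hhex against STAT3-deficient cells was 0.0951, and without the doubtful STAT3-deficient arrays it was 0.12. Against TGFb without IL-6 the adjusted p with only the 8 WT arrays was 0.227 for Gpr15 and 0.309 for Hhex, and with quantiles it was 0.0704 for Hhex. The block called 6 genes (0.0461%) against STAT3-deficient cells, adding Pdpn (4.35), Prg4 (2.38), Lgr4 (3.12) and Gli3 (3.0), all with the larger rise in WT cells. It called 3 genes (0.0231%) against TGFb without IL-6, adding Lgr4 (3.71). Lgr4, an R-spondin receptor, and Gli3, a transcription factor of the Hedgehog pathway, were named after their values were seen. The differences of Gpr15 and Hhex were less firm when single arrays were left out. Against STAT3-deficient cells the adjusted p rose to 0.121 for both without IL-6 with TGFb replicate 2, to 0.0991 for both without STAT3-deficient IL-6 replicate 1, to 0.0987 for both without STAT3-deficient IL-6 with TGFb replicate 2, to 0.0565 and 0.0586 without IL-6 replicate 1, and for Hhex alone to 0.113 without STAT3-deficient IL-6 with TGFb replicate 1. Against TGFb without IL-6 it was over 0.05 for both in the fits that left out IL-6 replicate 1, IL-6 with TGFb replicate 1 or 2, medium replicate 1 or TGFb replicate 2, up to 0.199 for Gpr15 and 0.205 for Hhex, for Gpr15 without medium replicate 2 (0.0658) and for Hhex without TGFb replicate 1 (0.175). In all of these fits the sign was kept.

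**Figure D4:**
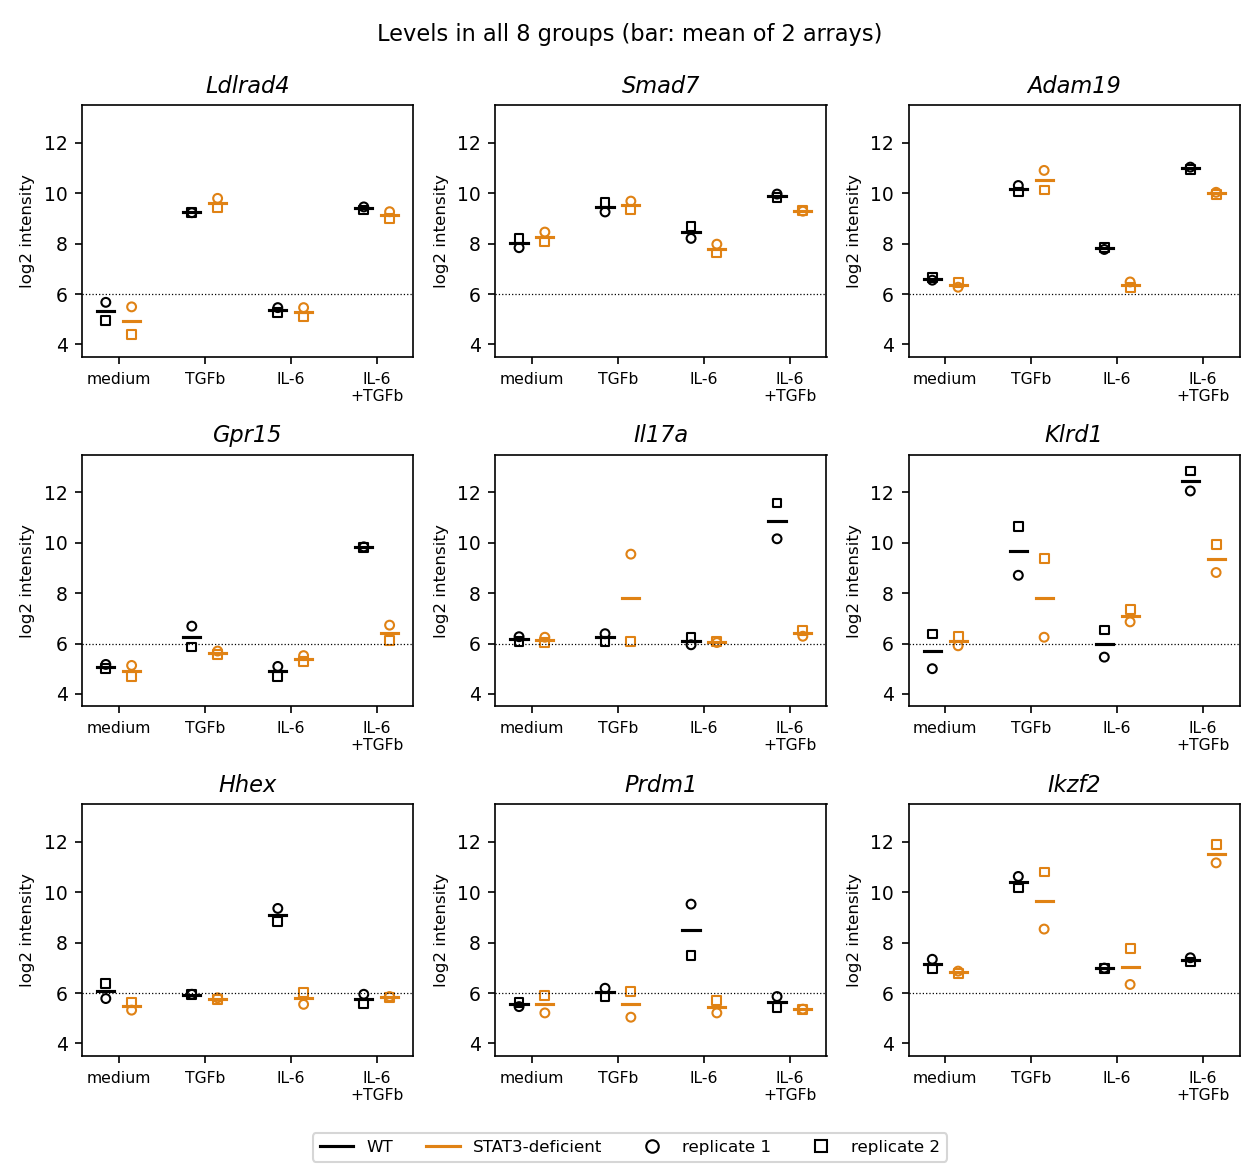
Log2 intensity (y axis) of 9 genes in the 4 culture conditions (x axis), WT in black and STAT3-deficient in orange, circles for replicate 1, squares for replicate 2 and a bar at the mean of 2 arrays, with a dotted line at log2 6. Ldlrad4, Smad7 and Adam19 are higher with TGFb in every setting, Gpr15 reaches 9.84 and 9.8 only with both cytokines in WT cells, and Hhex is at 9.36 and 8.83 only under IL-6 in WT cells.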

How the data were processed

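RNA from 16 cultures was hybridised to 1 array each. The authors deposited intensity values summarised with RMA, per the submitters' processing notes, on a linear scale of whole numbers between 6 and 37243. RMA usually ends in log2 values, and how these became linear is not given in the sources used here. Array medians lay between 66 and 73, so the deposited normalization was kept. Neither scanner files nor detection calls were used, and the number of arrays limits the precision.

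Groups came from the titles and genotype labels. Of 45101 probe sets, 64 controls were left out, and 34945 had 1 gene symbol in the platform annotation, 932 several and 9160 none. A gene was represented by its brightest probe set over the 16 arrays and tested where 2 or more arrays read at least log2 6, a minimum in place of detection calls that set aside 5186 genes. Levels of different probe sets were not compared.

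Log2 values were fitted in limma 3.58.1 (R 4.3.3) with a mean for each of 8 groups over all 16 arrays (8 residual and 3.27 prior degrees of freedom), and tested with two-sided moderated tests and Benjamini-Hochberg adjustment over 13007 genes. Adjusted p values in the text come from this fit unless another setting is named. The other settings are the same fit with the replicate number as a block and the alternatives listed below. The block is given because same-numbered arrays deviated together: the correlation of their deviations from the group means was above 0.1 for all 28 pairs of groups (0.107 to 0.863, and 0.33 for the 2 groups compared). The scripts were tested on simulated data.

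The genes named include 15 higher and 15 lower genes. These have the largest change among called genes with no overlap and a higher group mean of at least log2 8. Cacna1c, named after its values were seen, fell by more than some of these (change -2.79), but its IL-6 mean was 7.1. Also named are up to 4 called members of each list, 40 genes of a fixed panel where measured (the others were not analysed here), and genes passing a test of a difference. Genes outside these rules are said to be chosen after their values were seen, as are those named for a list's extremes or for a call that only the block gave. The comparison, the lists and the panel were chosen with earlier results of these data known. Alternatives left out arrays, changed the minimum level, added 32 before the log, normalized by quantiles, averaged probe sets, or changed the estimate of the spread.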

Additional observations from a re-analysis of the deposited data

Results flagged for a closer look

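With 2 arrays in each group, outlying samples could not be looked for. The results that differed between settings by a test of the difference were those of Gpr15 and Hhex. The change of Gpr15 with TGFb added to IL-6 was larger in WT than in STAT3-deficient cells by 3.9 on the log2 scale, and larger than its change with TGFb in medium by 3.74. The change of Hhex differed by -3.37 and -3.18 in the same tests. Hhex read 9.36 and 8.83 under IL-6 in WT cells, so its difference comes from the IL-6 arrays, whereas that of Gpr15, at 9.84 and 9.8, comes from the arrays with both cytokines. Both tests use the same 4 WT arrays, so they are not independent of each other.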

How the results depend on the processing

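The 124 calls became 243 with the replicate block, 81 with only the 8 WT arrays and 40 with only the 4 arrays compared, and ranged from 28 to 400 when 1 array was left out. The other 8 settings gave 113 to 151. Calls of a difference from STAT3-deficient cells (2) became 6 with the replicate block, 5 with 32 added and 4 with probe sets averaged, and ranged from 0 to 65 with 1 array left out. Calls of a difference from TGFb without IL-6 (2) became 0 with only the 8 WT arrays (as with only the arrays compared; 938 genes at an unadjusted p under 0.05 in limma), 6 without the doubtful STAT3-deficient arrays (TGFb replicate 1 and IL-6 with TGFb replicate 1), 6 with 32 added and 1 with quantiles, and ranged from 0 to 142 with 1 array left out. Fits with 0 calls had 327 to 1058 genes at an unadjusted p under 0.05.

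Of the 39 named called genes none changed sign in any setting, 12 kept their call in all and 18 in all except leaving out 1 array. Those called in 1 of the 4 such fits, Il17a and Klrd1 among them, were called only without IL-6 replicate 2. With only the 8 WT arrays the calls of Ahr, Alcam, Dennd3, Dgkk, Grk5, Klrc1, Mlkl, Moxd1, Nt5e, Prdm1, Smad7 and Tmem176b were lost. The sign turned only in genes that were not called. With 1 array left out the changes ranged from -0.75 to 0.79 for Tgfb1, -0.76 to 0.12 for Smad3, -0.21 to 2.88 for Foxp3, -0.83 to 1.26 for Il2ra, -0.43 to 0.42 for Il21, -2.48 to 0.06 for Ifng, -0.09 to 0.58 for Stat3, -0.38 to 1.41 for Il6ra, -1.26 to 0.19 for Il2, -0.06 to 0.37 for Il7r and -0.2 to 1.42 for Runx1. With probe sets averaged the values were -0.16 for Ikzf2, -0.04 for Il2ra and 0.85 for Il21, and with quantiles 0.03 for Il21. With probe sets averaged the changes of called genes fell to 1.8 for Ahr, 1.5 for Rora, 0.87 for Bmpr2, 2.48 for Ldlrad4, 2.46 for Endod1, 3.32 for Kctd14 and 2.91 for Klrc1, and to -3.44 for Slc17a6, -2.17 for St3gal1, -2.03 for Epsti1, -1.25 for Grk5 and -1.3 for Alcam, whose call was lost (adjusted p = 0.173). The causes were not tested. Of 70 called genes with further probe sets, 7 had one of opposite sign, none at log2 6 or more with a difference of 0.5 or more. A lower group under log2 6, as in 27 higher and 12 lower genes, makes the fold depend on the background.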

Other observations

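Among the called genes outside the lists, chosen here after their values were seen, were several that act in T cell signalling. Cd274, which encodes PD-L1, the ligand of PD-1, read 9.72 and 9.12 under IL-6 and 7.97 and 7.47 with TGFb, a log2 change of -1.7 ± 0.29 (adjusted p = 0.021 in limma). Cd86, a ligand of CD28 and CTLA-4, read 5.25 and 5.17 against 7.17 and 7.83, a change of 2.29 ± 0.3 (adjusted p = 0.00477). Both ligands' groups were apart, in opposite directions. Rasgrp1, which activates Ras below the T cell receptor, fell by 1.76, Slamf1, a homophilic costimulatory receptor, by 1.49, and Pparg, a lipid-sensing nuclear receptor, by 1.48. Lgr4, a receptor for R-spondins, read 6.73 and 7.14 against 10.32 and 10.01, a change of 3.23 ± 0.37 (adjusted p = 0.00239), and was called in all 4 fits that left out 1 array. Lgr4 changed by 0.11 in STAT3-deficient cells and by -0.48 with TGFb in medium, and its differences against these had adjusted p values of 0.133 and 0.0852, or 0.0445 and 0.0177 with the replicate block. All these values are from its brightest probe set. Its further probe set did not show the rise, at means of 5.52 under IL-6 and 5.67 with TGFb (change 0.15). Fst, follistatin, which binds activin, rose by 1.41 (adjusted p = 0.00856), and Nrarp, a feedback inhibitor of Notch, by 1.71 (adjusted p = 0.00239).

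Several called genes are direct neighbours on their chromosomes. Of the 124 called genes 119 were protein-coding genes of the RefSeq gene table of GRCm38.p6, and 6 pairs of them had no other protein-coding gene between their starts. The pairs were Gpr15 with Cldnd1 (4.93 and 3.8), Tmem176b with Tmem176a (1.86 and 1.65), Klre1 with Klrd1 (2.09 and 6.45), Gabarapl1 with Klre1 (1.1 and 2.09), Ppp1r3d with Fam217b (1.74 and 2.59) and Siah1a with N4bp1 (1.35 and 1.65). Both genes of each pair were higher with TGFb. Whether such pairs are more frequent than among other genes was not tested.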
